A study of Homo sapiens with 12 samples.

Results

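The RNA 3′ ends that fall in the mitochondrial genes for cytochrome c oxidase subunits 1, 2 and 3 (MT-CO1, MT-CO2 and MT-CO3), and in the stretch just before MT-CO1, were followed through a pull-down of Staufen1 (STAU1), a protein that binds double-stranded RNA, and through polysome fractions of human HEK293T cells, an embryonic kidney line. Members were poly(A) site clusters on the plus strand of the mitochondrial chromosome (hg19) with at least 10 reads in any library. They lay in 4 windows: the stretch at 5531 to 5904, MT-CO1 at 5905 to 7530, MT-CO2 at 7580 to 8320 and MT-CO3 at 9210 to 10030. The pull-down table held 71 such sites of 75 listed in the windows and of 640413 in all, with 4 sites in the stretch, 32 in MT-CO1, 17 in MT-CO2 and 18 in MT-CO3. The fraction table held 63 of 74 listed, of 189010 in all. Near the minimum, site 7029 was kept with at most 11 reads in a library and site 9231 was left out with 9. Sites were chosen by position and read count, but the stretch was included because of the pull-down values of its last site, 5900. Pull-down values in the stretch are therefore a description with no test, and the low level of mitochondrial RNA in both pull-downs was already known when the genes were chosen.

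Each pull-down library came from STAU1-knockout HEK293T cells, 1 clone (C8) made with a Cas9 nickase, so both the STAU1 and the GFP groups lack their own STAU1. The cells transiently expressed STAU1-FLAG or, as the comparison, FLAG-GFP. RNA was sequenced from an anti-FLAG immunoprecipitation (IP) and from the input lysate, with 2 libraries each of STAU1 IP, STAU1 input, GFP IP and GFP input. For the fractions, polysomal and cytoplasmic RNA of the knockout (KO) and of its isogenic control clone C9, labelled wild type (WT), gave 1 library each. The 3'READS+ method counts 1 read per captured 3′ end that carries a poly(A) tail, so a count does not grow with transcript length. The tables hold positions without gene names, and neither HEK293T markers nor the STAU1 transcript of the knockout was checked here.

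Cytochrome c oxidase is complex IV of the respiratory chain, which passes electrons to oxygen, and its 3 mitochondrially encoded subunits form the catalytic core. MT-CO1 holds the haem and copper site where oxygen is reduced, MT-CO2 holds the copper centre that accepts electrons from cytochrome c, and MT-CO3 is a core subunit without a metal centre. The genes are transcribed from one strand of the circular genome as part of a long RNA that is cut mostly at transfer RNAs, and the messengers are translated by ribosomes inside the organelle. A short tail completes the stop codon of MT-CO3. Most of the stretch before MT-CO1 codes for a cluster of transfer RNAs on the other strand, so plus-strand RNA of that part is antisense to them. Whether site 5551, near the start of the stretch, lies in that part was not checked.

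Total reads ran from 1245270 to 9655646 in the 8 pull-down libraries, with the GFP IP libraries the shallowest, and from 2799226 to 3483937 in the 4 fraction libraries. STAU1 input replicate 1 stood apart: 99156 sites had a read there and 175098 in its partner, and the main values are given with and without it. Whether the replicates are separate cultures is not in the labels, so that the tests may rest on technical spread alone. Mitochondrial plus-strand reads made up 2.47% and 2.47% of the STAU1 IP libraries, against 6.59% and 5.85% of the STAU1 input. They made up 2.48% and 2.69% of the GFP IP libraries, against 5.88% and 6.23% of the GFP input. RefSeq (GRCh38.p14) lists 139 nuclear pseudogenes of the 3 genes, and reads of such copies were not separated here. In the first 600 kb of chromosome 1, plus-strand sites of at least 10 reads lay at 6 positions. The site at 566449 held 364 reads over the 8 libraries, 0.173% of those at 5900. Others there held 351, 251, 134, 130 and 53 reads. That is in the range of weakly read members, such as 7523 with 145 reads and 8295 with 25. The part of nuclear copies at such members was not tested.

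The 3 genes differed in where their polyadenylated ends lay. In MT-CO3, 98.3% of the 676754 reads over the 8 pull-down libraries fell on 1 site, 9991, near the end of the gene and the most read of all mitochondrial plus-strand sites. The stretch before MT-CO1 was as concentrated, with 96.5% of its 218155 reads at 5900, the 4th most read plus-strand site, 5 nt before the MT-CO1 window opens. MT-CO1 and MT-CO2 had no such dominant end. Their 46991 and 7025 reads were spread along the genes, with the most read site, 6038 in MT-CO1, holding 11.6% and site 7839 in MT-CO2 holding 20.9%. The last member in MT-CO1, at 7523, held only 145 reads and the last in MT-CO2, at 8295, held 25. In the fraction table the most read sites were 6394 in MT-CO1 with 1400 reads, 7899 in MT-CO2 with 265 and again 9991 in MT-CO3 with 302230. Neighbouring members lay a median of 33.0 nt apart in MT-CO1, 35.5 nt in MT-CO2 and 36.0 nt in MT-CO3. No gap was under 25 nt in MT-CO1 and MT-CO2 or under 27 nt in MT-CO3. The members are clusters, so the spacing of RNA ends and that set by clustering cannot be told apart.

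**Figure D1:**
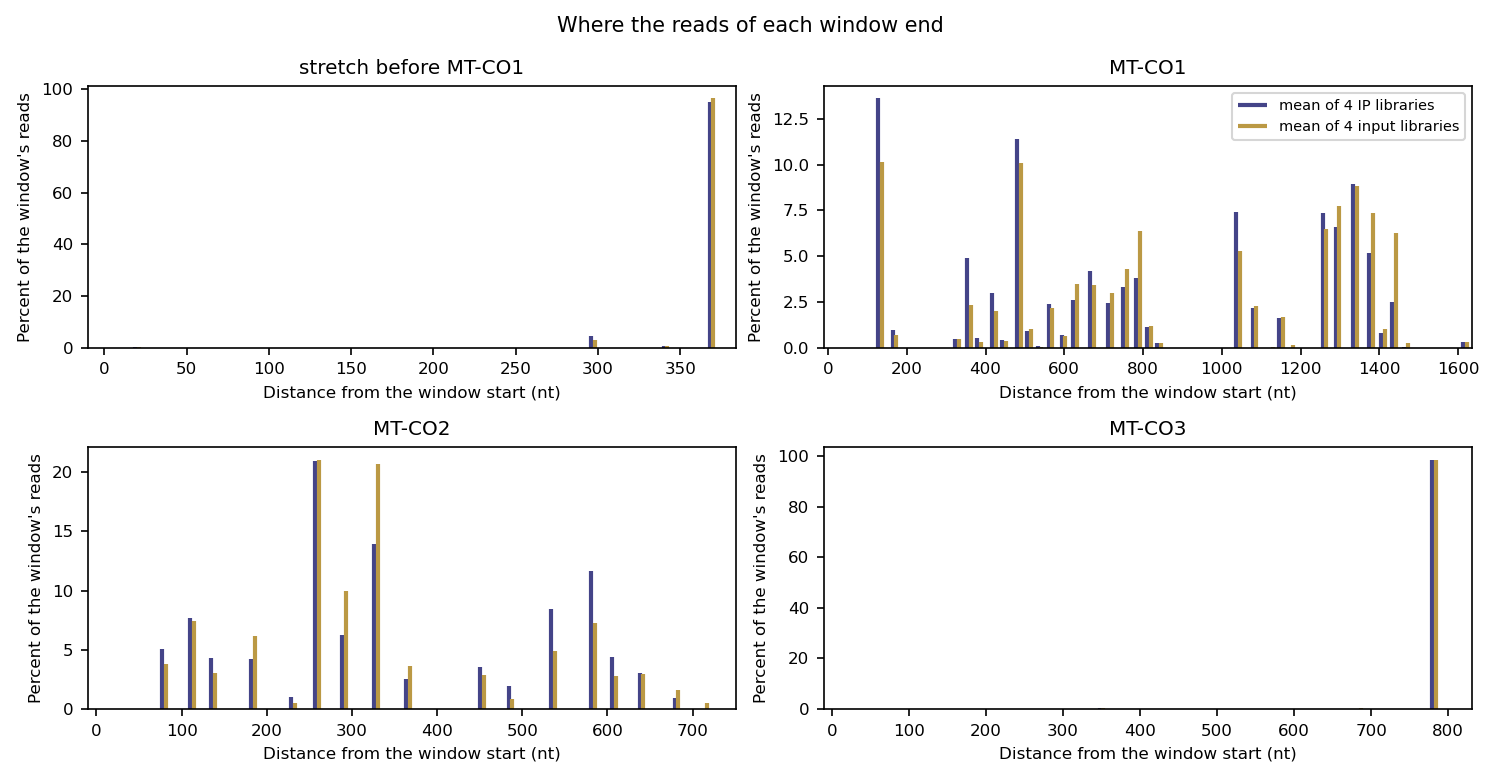
Share of each window's reads (percent, mean of 4 IP libraries and of 4 input libraries) at each member site, against its distance from the window start in nt. Reads of the stretch before MT-CO1 and of MT-CO3 pile up on 1 site near the right end, and those of MT-CO1 and MT-CO2 are spread over 32 and 17 sites.

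The site at 5900 lay above its input with STAU1 and below its input with GFP. It held 51780 and 43124 reads in the STAU1 IP libraries, against 20413 and 36887 in the STAU1 input. The GFP IP libraries had 1988 and 2045 reads there, and the GFP input libraries 21415 and 32956. After TMM scaling the level was 7553 ± 633 CPM in STAU1 IP and 3926 ± 374 in STAU1 input, and 1432 ± 82.2 in GFP IP and 3635 ± 840 in GFP input (SD, n = 2 each). The levels of the STAU1 pair did not overlap, nor did those of the GFP pair, and the inputs of the STAU1 and GFP lysates did. The log2 change of IP over input was 0.94 ± 0.17 (SE) for STAU1 and -1.34 ± 0.17 for GFP, and their difference, the double ratio, was 2.29 ± 0.24. Leaving out each library in turn gave a double ratio of 2.06 to 2.60, and 2.23 without STAU1 input replicate 1. The site was singled out for these values, so the SE and the range describe it and test nothing.

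Set against the other mitochondrial plus-strand RNA of the same libraries, 5900 also stood out in STAU1 IP. It took 33.8% and 30.5% of all mitochondrial plus-strand reads in STAU1 IP, where it ranked first, against 5.56% and 6.53% in STAU1 input. It took 6.21% and 6.11% in GFP IP, against 4.77% and 5.92% in GFP input, and its rank in these 6 other libraries was between 4 and 6. The end of MT-CO3 at 9991 ranked first in those 6 libraries and second in STAU1 IP. Reads at 5900 amounted to 145% and 131% of those at 9991 in STAU1 IP, against 19.8% and 23.4% in STAU1 input. In GFP IP they amounted to 16.0% and 20.8%, against 13.2% and 21.7% in GFP input. Relative to the sum over MT-CO1, the gene that begins next to it, 5900 held 13.3 and 10.9 times as many reads in STAU1 IP, against 2.92 and 3.46 times in STAU1 input. These shares and ratios are free of the scaling between libraries. On a scale set by the mitochondrial plus-strand reads outside the windows, the log2 change at 5900 was 3.07 for STAU1 and 0.32 for GFP, so that the GFP value turned its direction.

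The other 3 sites of the stretch did not share one pattern. Site 5828 held 1645 and 1139 reads in STAU1 IP, against 546 and 1320 in STAU1 input, and 120 and 133 in GFP IP, against 602 and 1133 in GFP input. It averaged 221 ± 47.0 CPM in STAU1 IP and 124 ± 36.8 in STAU1 input, a log2 change of 0.83 ± 0.27 (SE). It averaged 89.9 ± 9.89 CPM in GFP IP and 115 ± 42.4 in GFP input (SD, n = 2 each), a change of -0.36 ± 0.28. The STAU1 levels did not overlap and the GFP levels did. The double ratio at 5828 was 1.19 ± 0.39, below that at 5900. The reads at 5900 were 31.5 and 37.9 times those at 5828 in STAU1 IP, 37.4 and 27.9 times in STAU1 input, 16.6 and 15.4 times in GFP IP and 35.6 and 29.1 times in GFP input. Only the GFP IP libraries thus lay apart in this ratio. Site 5872, with 89 and 128 reads in STAU1 IP, changed by 0.00 ± 0.45 in the STAU1 pull-down. Site 5551, at the far end of the stretch, had 5 and 4 reads in STAU1 IP, against 43 and 50 in STAU1 input, a change of -3.18 ± 0.99. On the scale of the other mitochondrial plus-strand reads, the changes at 5828, 5872 and 5551 were 2.95, 2.12 and -1.09 for STAU1 and 1.31, 0.98 and 0.76 for GFP, so that the GFP values turned. The 4 sites lie within a window of 374 nt and may come from overlapping RNAs, so they are not independent.

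**Figure D2:**
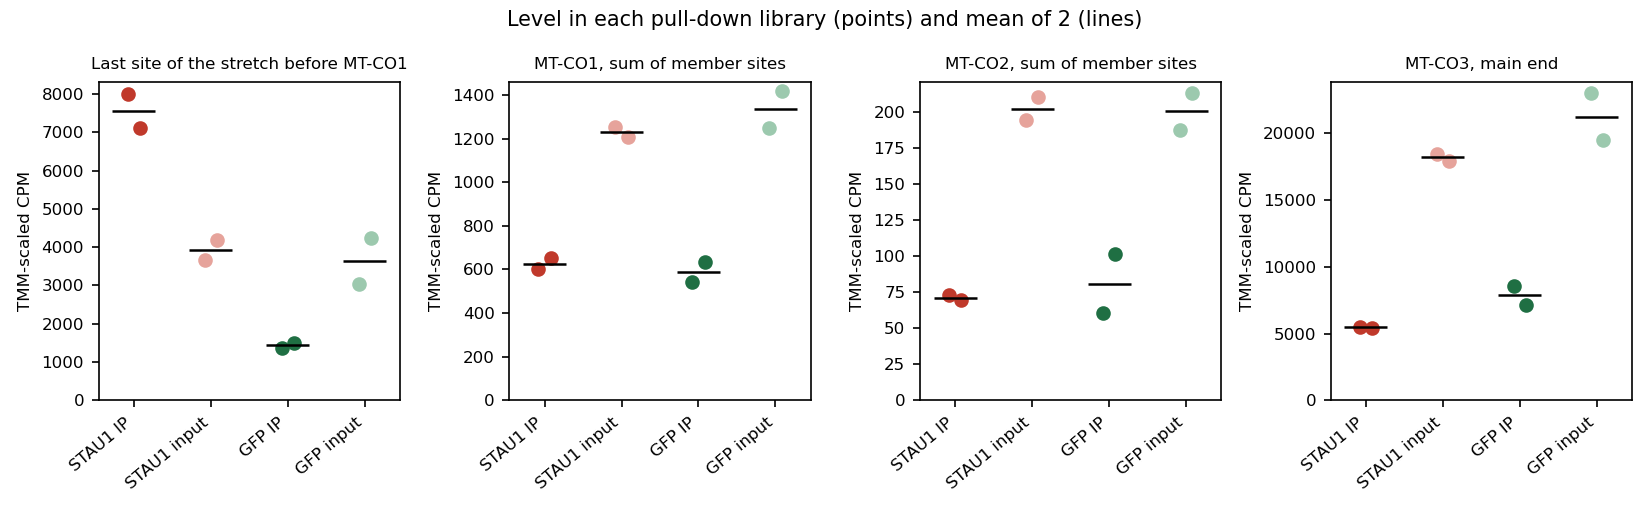
TMM-scaled CPM in each of the 8 pull-down libraries (points) with the mean of 2 libraries (line), for site 5900, the sums over MT-CO1 and MT-CO2, and the MT-CO3 end at 9991; each axis has its own range and starts at 0. On this scale 5900 is highest in STAU1 IP and lowest in GFP IP, while the 3 genes are lower in both IP groups than in their inputs. Relative to the other mitochondrial plus-strand reads the gene values and the GFP value at 5900 turn positive. There MT-CO1 in STAU1 is the 1 gene value that passed the test, where 44.0% of all sites were called higher.

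All 3 genes were lower in the STAU1 pull-down than in its input when libraries were scaled by TMM, the opposite of 5900. Scaled to the other mitochondrial plus-strand reads their values were positive, and MT-CO1 alone passed the test (1.15, adjusted p = 0.000352). On that scale 44.0% of all sites were called higher, and the median of all sites was 2.23, above the 3 genes. That scale rests on a sum of reads. With TMM the 374 mitochondrial plus-strand sites outside the windows had a median of -1.57. The MT-CO1 sum was 602 and 653 CPM in STAU1 IP, against 1253 and 1209.8 in STAU1 input, a log2 change of -0.98 ± 0.17 (SE; edgeR quasi-likelihood test, adjusted p = 0.00101). The MT-CO2 sum was 72.9 and 69.2 CPM in STAU1 IP, against 194 and 209.8 in STAU1 input (-1.51 ± 0.24, adjusted p = 0.000501). The MT-CO3 sum was 5597 and 5538 CPM in STAU1 IP, against 18798 and 18234 in STAU1 input (-1.74 ± 0.14, adjusted p = 5.35e-07). No gene's IP libraries overlapped its input libraries. In the 3 sums the changes without STAU1 input replicate 1 were -1.04, -1.65 and -1.80. The p-values are adjusted over all sites of the table, with the member sites of each window replaced by their sum.

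In the GFP pull-down the same genes were lower than the GFP input under TMM scaling, and when scaled to the other mitochondrial plus-strand reads their values turned positive without passing the test (0.21 to 0.46). The MT-CO1 sum was 543 and 633 CPM in GFP IP, against 1249 and 1418 in GFP input (-1.18 ± 0.17, adjusted p = 0.000164). The MT-CO2 sum was 60.1 and 101 CPM in GFP IP, against 187 and 213 in GFP input (-1.32 ± 0.24, adjusted p = 0.00199). The MT-CO2 call was lost without GFP IP replicate 1 (-1.06, adjusted p = 0.0686). The MT-CO3 sum was 8689.7 and 7271 CPM in GFP IP, against 23345 and 19853 in GFP input (-1.44 ± 0.14, adjusted p = 5.54e-06). The double ratio, which sets the STAU1 change against the GFP change, was 0.21 ± 0.23 for MT-CO1 (adjusted p = 0.817), -0.20 ± 0.33 for MT-CO2 (adjusted p = 0.896) and -0.30 ± 0.20 for MT-CO3 (adjusted p = 0.632), where the median over all tested sites was 0.30. On the scale of the other mitochondrial plus-strand reads the 3 values were 0.69, 0.32 and 0.18, so that those of MT-CO2 and MT-CO3 turned. None of the 3 genes passed the test of that difference with TMM, against a double ratio of 2.23 for the sum over the stretch next to them.

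Site by site, 63 of the 67 members in the genes passed the low-count filter. In STAU1 IP over STAU1 input 18 of the 63 were called lower (adjusted p under 0.05), against 2.99% of the 33744 sites tested, and 0 were called higher, against 3.06%. The calls were 10 in MT-CO1, 3 in MT-CO2 and 5 in MT-CO3. In GFP IP over GFP input 13 were called lower, against 3.99% of all sites, and 0 were called higher, against 2.11%. These were 8 in MT-CO1, 2 in MT-CO2 and 3 in MT-CO3, and 10 members were called lower in both pull-downs, 55.6% of the STAU1 calls and 76.9% of the GFP calls. The share of all sites called lower in both was not taken, so this overlap is not read as a result about the genes. The median log2 change over the 63 was -1.30 for STAU1, where all tested sites had a median of 0.12, and -1.43 for GFP, where all had -0.16. Mitochondrial plus-strand sites outside the windows had medians of -1.57 and -1.52, with 117 and 75 of 374 called lower, close to the values of the genes. Leaving out 1 library moved the STAU1 and GFP counts. Those fits keep 1 library in a group and test another number of sites, so their counts are not set against these.

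**Figure D3:**
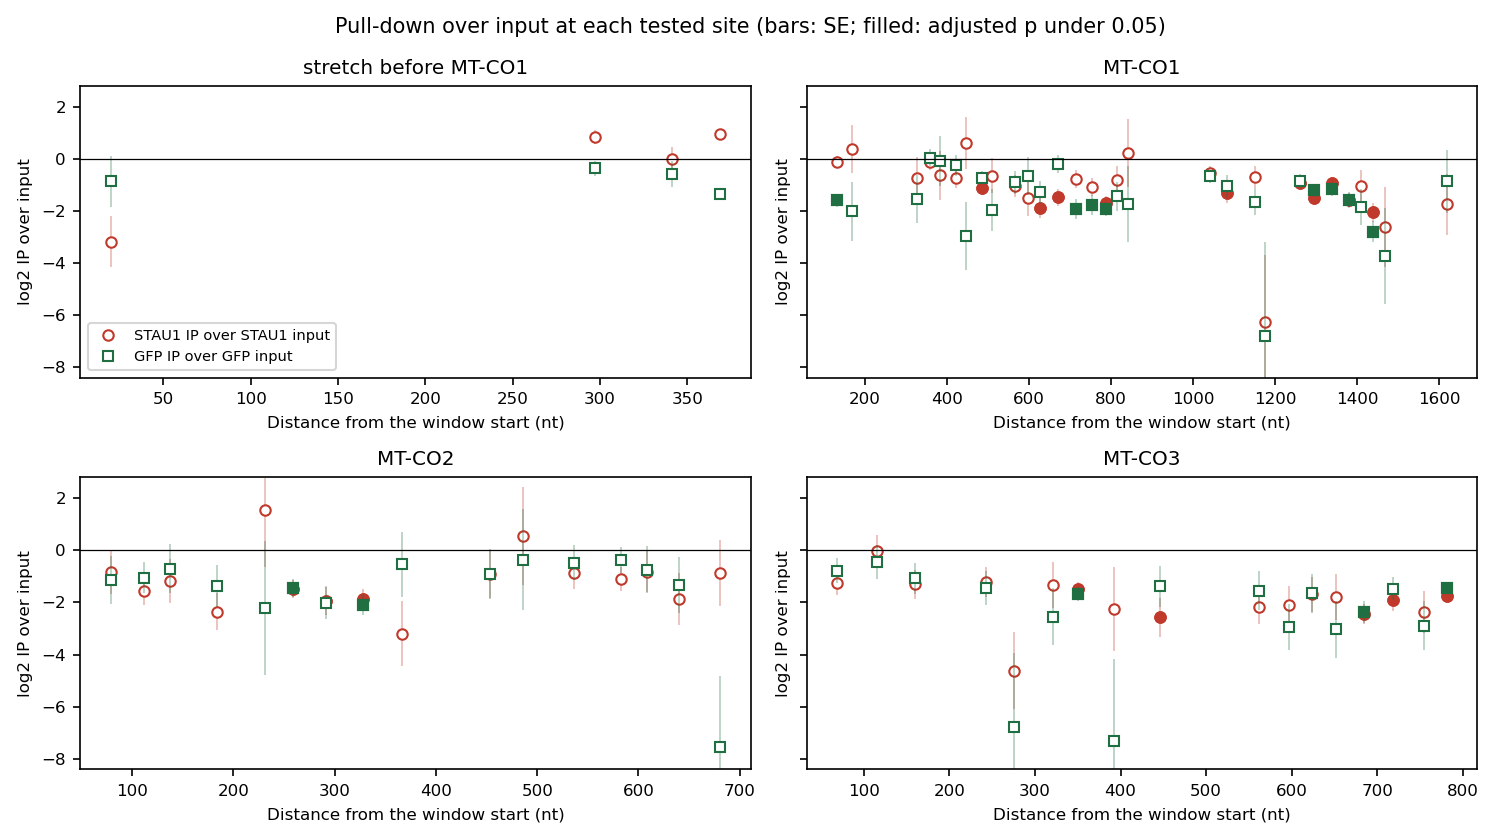
Log2 change of IP over input (TMM scaling; bars are SE) at each site that passed the filter, against its distance from the window start in nt, with STAU1 as circles and GFP as squares; filled symbols have an adjusted p under 0.05, and the sites of the stretch before MT-CO1 were not tested. Nearly all sites of the 3 genes lie below 0 on this scale in both pull-downs, 5900 lies at 0.94 and -1.34, and symbols below -4 have at most 3 reads in the IP libraries.

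The first site of MT-CO1 is also its most read over the 8 pull-down libraries, though not in the fractions. Site 6038, 133 nt into the window, held 901 and 695 reads in STAU1 IP, against 889 and 1032 in STAU1 input, and 58 and 56 in GFP IP, against 723 and 1099 in GFP input. It averaged 127 ± 17.5 CPM in STAU1 IP and 138 ± 29.9 in STAU1 input, with overlapping levels (log2 change -0.12 ± 0.24, adjusted p = 0.839). It averaged 40.5 ± 0.51 CPM in GFP IP and 122 ± 27.1 in GFP input (SD, n = 2 each), without overlap (-1.59 ± 0.26, adjusted p = 0.000676). On the scale of the other mitochondrial plus-strand reads these 2 changes turned to 2.01 and 0.07. The double ratio was 1.47 ± 0.35 with an adjusted p of 0.0595, which missed the threshold. It was not called with RLE size factors (1.32) or library totals (1.28) either. It was called with DESeq2 (1.32, adjusted p = 0.0138), where 441 of 33744 sites were called higher, against 179 in the main fit. It was also called without the low-count filter (1.50, adjusted p = 0.0257), where 313 of 62637 sites were. The replicate number as a block called it as well (1.47, adjusted p = 0.015), with 389 sites called higher in all. So did the scale of the other mitochondrial plus-strand reads (1.93, adjusted p = 0.0198), with 535 sites. Over the 8 settings that leave out 1 library its double ratio ran from 1.25 to 1.78. Other MT-CO1 sites, named after their values were seen, went both ways. Of the 30 sites tested in the gene, 13 had a double ratio below 0. Among these were 6390 (-0.41 ± 0.35) and 6575 (-1.29 ± 0.49). Sites 6074 and 6352 had values above 0, at far lower counts than 6038. Site 6074, with 70 and 42 reads in STAU1 IP, 4 and 111 in STAU1 input, 0 and 8 in GFP IP and 43 and 134 in GFP input, had a double ratio of 2.40 ± 1.47 (adjusted p = 0.598). Its double ratio was 9.47 without GFP IP replicate 2 and 5.72 without STAU1 input replicate 2. Site 6352, with 12 and 46 reads in STAU1 IP and 1 and 1 in GFP IP, had a double ratio of 3.56 ± 1.65 (adjusted p = 0.432).

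Further into MT-CO1 both pull-downs lay below their inputs under TMM scaling, whereas on the scale of the other mitochondrial plus-strand reads most named sites lay above. Site 7343 held 92 and 152 reads in STAU1 IP, against 498 and 648 in STAU1 input, a log2 change of -2.05 ± 0.36 (adjusted p = 0.00135) that was 0.06 on the other scale. It held 8 and 24 reads in GFP IP, against 509 and 670 in GFP input (-2.79 ± 0.42, adjusted p = 0.000286). On the other scale this GFP change stayed below 0, at -1.2, and was no longer called. Site 6390, the second most read, fell by 1.13 ± 0.25 in the STAU1 pull-down (adjusted p = 0.0076) and was at -0.73 ± 0.25 in the GFP pull-down (adjusted p = 0.113), values that turned to 0.99 and 0.97. Summed over the first, middle and last of 3 equal parts of the window, the ratio of mean levels was -0.48, -1.14 and -1.31 on the log2 scale for STAU1, and -0.91, -1.19 and -1.37 for GFP. Over the 18 sites with an average log2 CPM of at least 4, Spearman's rho between position and change was -0.45 for STAU1 and -0.40 for GFP. This is a description of sites that share the same libraries.

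The MT-CO2 sites were the least read, and few were called; the falls given here hold under TMM and, for site 7839 in both pull-downs and 7908 in the STAU1 pull-down, turned to between 0.21 and 0.63 on the scale of the other mitochondrial plus-strand reads. Its 2 most read sites, 7839 and 7908, held 73 and 95 reads and 66 and 70 reads in STAU1 IP, against 188 and 366 and 209 and 362 in STAU1 input. Site 7908 fell by 1.85 ± 0.36 with STAU1 (adjusted p = 0.00291) and by 2.08 ± 0.40 with GFP (adjusted p = 0.00263), the second call being lost without GFP IP replicate 1 (-1.73, adjusted p = 0.0515). Site 7839 fell by 1.48 ± 0.33 in the STAU1 pull-down (adjusted p = 0.00887) and by 1.43 ± 0.35 in the GFP pull-down (adjusted p = 0.0175). These 2 calls were lost without STAU1 IP replicate 1 (-1.29, adjusted p = 0.13), and without GFP IP replicate 1 (-1.44, adjusted p = 0.137) or GFP input replicate 2 (-1.34, adjusted p = 0.121). The log2 changes of the 16 tested sites had medians of -1.14 for STAU1 and -1.09 for GFP.

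In MT-CO3 the main end and the 2 next most read sites inside the gene all lay below their inputs under TMM scaling. Site 9991 held 35675 and 32937 reads in STAU1 IP, against 102869 and 157890 in STAU1 input, and 12432 and 9817 in GFP IP, against 161992 and 151936 in GFP input. It averaged 5469 ± 60.5 CPM in STAU1 IP and 18194 ± 364 in STAU1 input, and 7874 ± 1017 CPM in GFP IP and 21253 ± 2482 in GFP input (SD, n = 2 each). Neither pull-down overlapped its input. The log2 change was -1.73 ± 0.14 for STAU1 (adjusted p = 6.93e-07) and -1.43 ± 0.14 for GFP (adjusted p = 6.5e-06). Inside the gene, site 9560 fell by 1.48 ± 0.25 and 1.66 ± 0.27 in the STAU1 and GFP pull-downs (adjusted p = 0.000968 and 0.000561). Site 9894, closer to the end, fell by 2.43 ± 0.38 and 2.35 ± 0.42 (adjusted p = 0.000525 and 0.00154). On the scale of the other mitochondrial plus-strand reads, 9894 was still below its input at -0.32 and -0.73, while 9991 turned to 0.39 and 0.22 and 9560 to 0.63 in the STAU1 pull-down.

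The share of a gene's reads at its most read site did not pass the test between IP and input. Site 6038 took 13.6 ± 8.09% of the MT-CO1 reads in the 4 IP libraries and 10.1 ± 1.88% in the 4 inputs (SD; exact permutation test over the libraries, two-sided, adjusted p = 0.943 over 3 genes). The IP value joined unlike pairs, 23.1% and 17.5% in STAU1 IP and 7.38% and 6.44% in GFP IP. The matching inputs were at 12.7% and 9.69% for STAU1 and at 8.22% and 9.94% for GFP. The STAU1 share thus lay above its input and the GFP share below, which a test that joins the tags cannot show. Site 7839 took 20.9 ± 5.34% of MT-CO2 in IP and 21.0 ± 2.99% in input (adjusted p = 0.971, same exact test). Site 9991 took 98.4 ± 0.37% of MT-CO3 in IP and 98.3 ± 0.18% in input (adjusted p = 0.943, same exact test). The smallest p that 70 arrangements of 4 against 4 allow is 0.0286.

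The balance between the genes was also compared, a comparison chosen after the data were seen. The log2 ratio of MT-CO1 to MT-CO3 reads was -3.22 and -3.09 in STAU1 IP, against -3.91 and -3.91 in STAU1 input. In GFP IP replicate 2 it was -3.52, above both GFP inputs (-4.22 and -3.81), and GFP IP replicate 1 lay between those inputs. The 4 IP libraries exceeded the 4 inputs by 0.51 on average, with overlap through the GFP libraries (exact permutation test, two-sided, p = 0.114, adjusted p = 0.171 over 3 ratios). The ratio of MT-CO1 to MT-CO2 was 0.35 higher in IP (p = 0.114, adjusted p = 0.171, same exact test) and that of MT-CO2 to MT-CO3 was 0.15 higher (p = 0.543, same exact test). On the scale of the other mitochondrial plus-strand reads, MT-CO2 (0.61, adjusted p = 0.0707) and MT-CO3 (0.39, adjusted p = 0.186) did not pass in the STAU1 pull-down, unlike MT-CO1. On that scale the GFP values were 0.46, 0.30 and 0.21, with adjusted p from 0.155 to 0.563. That scaling moved the median of all sites by 2.11 in the STAU1 contrast and by 1.61 in the GFP contrast. Relative to the median of all sites the 3 genes were at -1.08, -1.61 and -1.84 for STAU1, against -1.09, -1.63 and -1.85 with TMM. A change of scale shifts all sites alike, so this closeness was set in advance. Site by site, 13 of the 63 members were called higher for STAU1 on that scale, where 44.0% of all sites were, and 5 for GFP, where 20.9% were. None was called lower, against 0.083% and 0.0741% of all sites, and in the double ratio 1 was called higher and 0 lower, against 1.59% and 0.0919%.

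Before the pull-down, no gene passed the test between the STAU1-FLAG and FLAG-GFP lysates. In STAU1 input over GFP input the log2 change was -0.11 ± 0.16 for the MT-CO1 sum, 0.01 ± 0.23 for MT-CO2 and -0.22 ± 0.14 for MT-CO3 (adjusted p = 1.0 each), and 0.11 ± 0.17 at 5900. No member of the genes was called in either direction, against 0.00889% and 0.0% of all sites called higher and lower, and 0 had an unadjusted p under 0.05. DESeq2 also called 0. In the double ratio 0 of the 63 were called in either direction, where 0.53% of all sites were called higher and 0.157% lower. At an unadjusted p under 0.05 there were 3 higher and 1 lower of the 63. The share of all sites at that unadjusted threshold was not taken, so these 4 are not read as a result. DESeq2 called 1 higher, site 6038, where it called 441 of 33744 sites higher.

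In the fractions, every window lay lower in polysomes than in cytoplasm under TMM scaling, and the stretch before MT-CO1 lay lowest (log2 ratio -3.47 in KO and -3.91 in WT), though in KO its interval overlapped that of MT-CO2. MT-CO3 was the 1 window that turned, to 0.77 and 0.38, on the scale of the other mitochondrial plus-strand reads. With 1 library each there is no test, and the intervals are exact binomial (Clopper-Pearson) 95% counting intervals that cover counting error only. Site 5900 held 469 reads in KO polysomes, against 4060 in KO cytoplasm, and 195 in WT polysomes, against 2388 in WT cytoplasm. Polysome over cytoplasm came to -3.42 in KO (-3.56 to -3.28) and -3.81 in WT (-4.03 to -3.60). Site 5828 was lower still, at -4.31 (-5.00 to -3.69) and -4.87 (-5.72 to -4.13). The 4766 sites that reached 50 reads in all 4 libraries had medians of 0.01 and -0.01, and their lowest 5% began at -0.96 in KO and -1.06 in WT. In these bulk fractions, fewer cells that hold an RNA and fewer molecules per cell cannot be told apart.

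The 3 genes differed among themselves in the same ratio. The MT-CO1 sum was 1031 reads in KO polysomes, against 4195 in KO cytoplasm (-2.33, interval -2.43 to -2.23), and 1105 in WT polysomes, against 3338 in WT cytoplasm (-1.79, interval -1.89 to -1.69). The MT-CO2 sum, with 113 and 125 polysomal reads, was lower at -3.26 (-3.56 to -2.98) in KO and -2.71 (-2.99 to -2.43) in WT. MT-CO3 was the highest, at -1.17 (-1.19 to -1.16) and -1.28 (-1.29 to -1.26). Without its main end, however, the sites inside MT-CO3 were at -2.23 in KO and -2.01 in WT, close to MT-CO1. Of the 9 members that reached 50 reads in all 4 libraries, 6 of them in MT-CO1, 2 in MT-CO3 and 1 in the stretch, 9 were more than 2-fold lower in KO polysomes, against 4.68% of all sites, and 8 in WT polysomes, against 5.77%. None was more than 2-fold higher, against 1.72% and 2.6%. Mitochondrial plus-strand reads as a whole made up 3.61% of KO polysomal reads, against 9.93% of KO cytoplasmic reads, and 4.28% of WT polysomal reads, against 10.4% of WT cytoplasmic reads. Relative to the mitochondrial plus-strand reads outside the windows, MT-CO2 was at -1.33 and -1.05, MT-CO1 was at -0.39 and -0.14, and the stretch was at -1.53 and -2.25.

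Along MT-CO1, ends nearer the end of the gene had higher ratios of polysome to cytoplasm. In the first, middle and last of 3 equal parts of the MT-CO1 window the ratio was -3.13, -2.35 and -1.96 in KO and -2.91, -1.82 and -1.32 in WT, with intervals that did not overlap between the first and the last part. Site 6038 was at -4.23 (-5.03 to -3.52) in KO and -3.59 (-4.41 to -2.88) in WT, and site 7285 at -1.67 (-1.94 to -1.41) and -0.91 (-1.17 to -0.65), which turned to 0.26 and 0.75 on the scale of the other mitochondrial plus-strand reads. Over the 26 sites of MT-CO1 with at least 50 reads in the 4 libraries together, Spearman's rho between position and ratio was 0.74 in KO and 0.80 in WT. In MT-CO3 it was 0.70 and 0.79 over 14 sites, although the middle of 3 equal parts, without the main end, was the lowest there (-2.31, -2.97 and -1.93 in KO, and -2.42, -2.97 and -1.47 in WT). In MT-CO2 it was -0.01 in KO and 0.89 in WT over 12 sites, whose polysomal counts were small. These correlations describe sites that share 2 libraries, and the sites of a gene may come from overlapping RNAs.

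**Figure D4:**
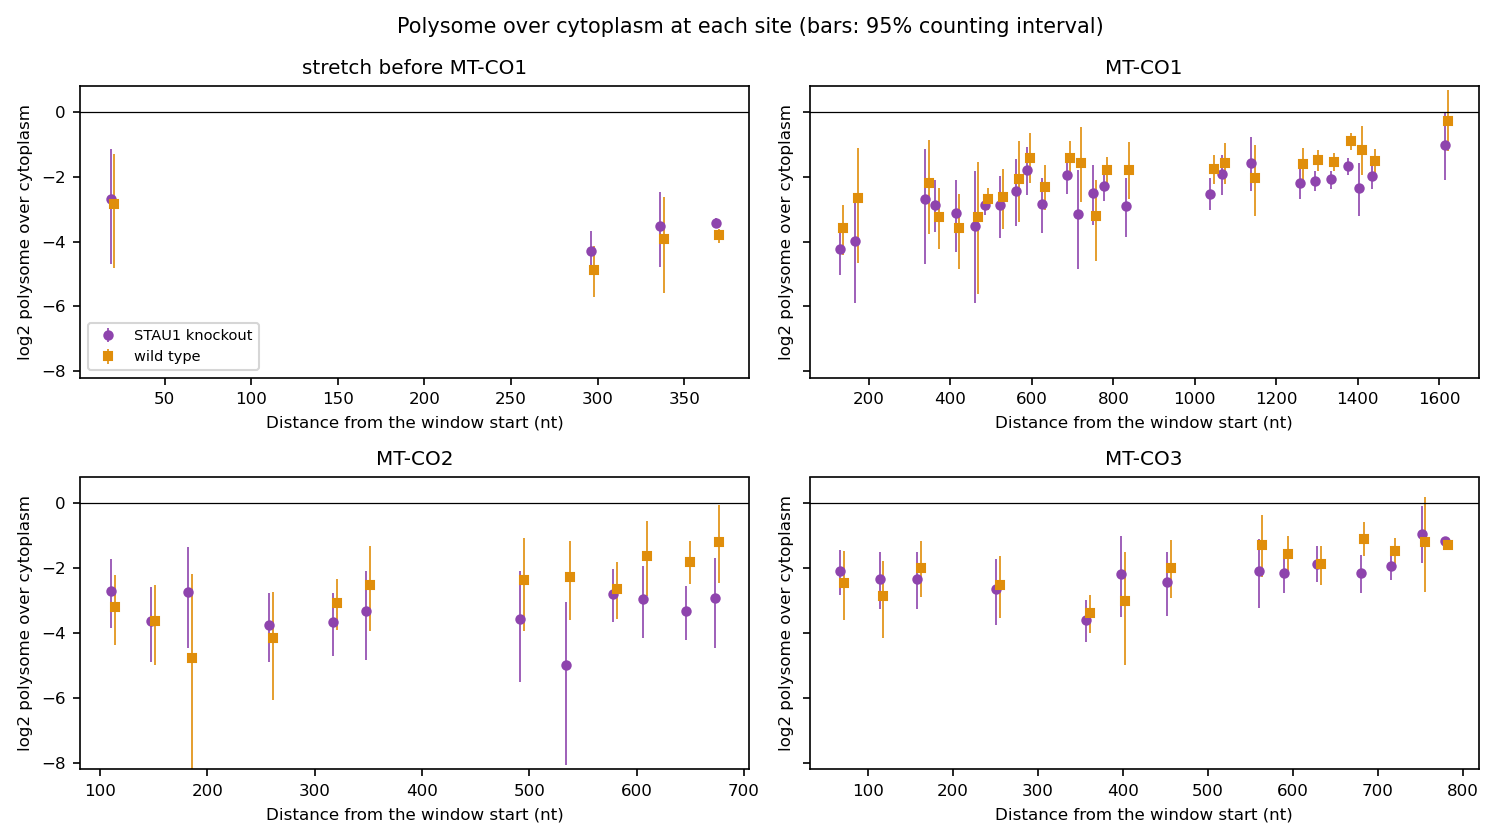
Log2 ratio of polysome to cytoplasm (TMM scaling) at each member with at least 50 reads over the 4 fraction libraries, against its distance from the window start in nt, for STAU1 knockout (circles) and wild type (squares, shifted to the right for clarity); bars are 95% counting intervals and some run past the axis. The ratios of MT-CO1 climb from -4.23 (KO) and -3.59 (WT) at the first site toward the end of the gene, where 1 named site in KO and 4 in WT turn positive on the scale of the other mitochondrial plus-strand reads, and site 5900 lies at -3.42 and -3.81.

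Between KO and WT, site 5900 was higher in KO in both fractions, and the 3 genes were at or below WT in polysomes under TMM scaling. Site 5900 was at 1307 CPM in KO cytoplasm, against 924 in WT cytoplasm, a log2 ratio of 0.50 (0.43 to 0.57). It was at 122 CPM in KO polysomes, against 65.7 in WT polysomes, a ratio of 0.89 (0.65 to 1.14). The MT-CO1 sum was at 0.07 (-0.00 to 0.13) in cytoplasm and -0.47 (-0.60 to -0.35) in polysomes, the MT-CO2 sum at 0.04 and -0.52, and the MT-CO3 sum at -0.19 and -0.09, each in cytoplasm and then polysomes. Scaled to the other mitochondrial plus-strand reads, the polysome values of MT-CO1 and MT-CO2 were -0.01 and -0.05, and that of MT-CO3 turned to 0.38. Site 5828 did not follow 5900, at -0.38 (-0.60 to -0.17) in cytoplasm. None of those 9 members passed 2-fold in either direction in cytoplasm, where 1.8% of all sites were higher and 2.08% lower, or in polysomes, where 1.11% were higher and 1.07% lower. With 1 library per genotype and fraction, differences between genotypes and differences between single libraries cannot be told apart.

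Minus-strand reads inside the same windows set the stretch and MT-CO3 apart from the other genes. In the pull-down libraries the minus strand held 0.661% to 3.30% of the reads in the stretch and 3.98% to 12.3% in MT-CO3, but 44.4% to 64.4% in MT-CO1 and 57.2% to 81.7% in MT-CO2. In MT-CO1 its share was 63.7% and 64.4% in STAU1 IP, against 44.7% and 48.0% in STAU1 input, and 52.0% and 48.2% in GFP IP, against 50.7% and 44.4% in GFP input. In MT-CO2 it was 78.8% and 80.7% in STAU1 IP, against 58.9% and 60.8% in STAU1 input, and 81.7% and 74.1% in GFP IP, against 62.5% and 57.2% in GFP input. In MT-CO3 it was 12.3% and 11.7% in STAU1 IP, against 4.41% and 5.04% in STAU1 input, and 9.07% and 9.43% in GFP IP, against 3.98% and 4.50% in GFP input. The minus-strand share was thus above input in both pull-downs in MT-CO2 and MT-CO3, while in MT-CO1 the GFP libraries overlapped. The shares in the fraction libraries were lower, 14.0% to 29.9% in MT-CO1 and 19.0% to 38.9% in MT-CO2. Of 72 minus-strand sites tested in the gene windows, 2 were called higher in the STAU1 pull-down, where 3.06% of all sites were, and 0 lower. With GFP 0 were called higher and 3 lower, where 3.99% of all sites were lower, and in the double ratio 1 was higher, where 0.53% of all sites were. The STAU1 and GFP counts, of 72 sites, are near those shares. The part of strand or of nuclear copies in the values above was not tested.

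Across the 8 pull-down libraries the sites most like 5900 in log2 CPM were nuclear. Among 6222 sites outside the windows with an average log2 CPM of at least 4, the highest Pearson correlations were 0.996 at 12904124 on chromosome 19, 0.993 at 44123255 on chromosome 6, 0.988 at 45722754 on chromosome 3, 0.985 at 219270663 on chromosome 2 and 0.985 at 98944124 on chromosome 12, all on plus strands. The points are the same 8 libraries in 4 groups. The closest of these to 5900 in size, at 44123255, had a log2 change of 0.97 for STAU1 and -1.24 for GFP. The mitochondrial plus-strand site most like it was 14746 (r = 0.974, rank 10), with changes of 0.63 and -0.63.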

How the data were processed

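The submitters' processing notes name hg19 and STAR, without versions. The values the authors deposited are whole read counts at clustered poly(A) sites, not normalized, in a table of 8 pull-down libraries and another of 4 fraction libraries, which were scaled separately. No source used here says how clusters were formed or reads removed. All per-sample columns were used. The windows, members, lists and tests were chosen with earlier results of these data known. Genes were assigned by the windows alone, since no annotation or sequence of that build was used here, and no gene sequence is shown.

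The test was edgeR's quasi-likelihood F test (edgeR 4.0.16, R 4.3.3) on all 8 pull-down libraries in 4 groups, leaving 4 residual degrees of freedom, after TMM scaling and filterByExpr. P-values were adjusted by Benjamini-Hochberg over 33744 sites with a threshold of 0.05. The fit of window sums replaced members by their sums and held 33681 features. SE is the log2 change divided by the square root of F. Alternatives were other scalings, DESeq2 1.42.0, no filter, only the libraries compared, a replicate block and leaving out each library. The scripts were tested on simulated data. Fractions, with 1 library each, were given as log2 ratios of TMM-scaled counts with exact binomial intervals (scipy 1.17.1). Named were all 4 sites of the stretch, in each gene the 5 most read sites of the pull-down table and the 3 most read of the fraction table, members called in the double ratio or between inputs, and the 3 largest and smallest called changes at an average log2 CPM of at least 4.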

Additional observations from a re-analysis of the deposited data

Results flagged for a closer look

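With TMM scaling, site 5900 was above its input in both STAU1 IP libraries and below its input in both GFP IP libraries, so that every library of one tag moved one way and every library of the other tag the opposite way. Its log2 change was 0.94 for STAU1 and -1.34 for GFP, a double ratio of 2.29. The sum over the stretch before MT-CO1, 96.5% of which is that site, did the same, with a log2 ratio of group means of 0.94 for STAU1 and -1.30 for GFP and a double ratio of 2.23. As a share of mitochondrial plus-strand reads, 5900 was higher in both GFP IP libraries (6.21% and 6.11%) than in both GFP inputs (4.77% and 5.92%), and scaled to those reads outside the windows its GFP change was 0.32. Neither difference was tested, since the site was chosen for it.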

How the results depend on the processing

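The 3 genes stayed called lower in both pull-downs with RLE size factors and library totals (-1.72 to -0.84 for STAU1 and -1.29 to -0.87 for GFP). The one scaling that turned their sign shifts all sites of a contrast alike. A value relative to the median of all sites can therefore hardly move, and its steadiness tests nothing about the scaling. On the scale of the mitochondrial plus-strand reads outside the windows, the sums over the stretch, MT-CO1, MT-CO2 and MT-CO3 were at 3.06, 1.15, 0.61 and 0.39 for STAU1 and 0.37, 0.46, 0.30 and 0.21 for GFP, and the double ratio of the stretch was 2.69. The members called were then 13 higher and 0 lower for STAU1, 5 higher and 0 lower for GFP, and 1 higher in the double ratio, beside 44.0%, 20.9% and 1.59% of all sites called higher. The STAU1 sites turned to 2.01 (6038), 0.99 (6390), 1.18 (7166), 0.63 (7199), 1.18 (7243), 0.54 (7285), 0.06 (7343), 0.63 (7839), 0.18 (7871), 0.26 (7908), 0.63 (9560), 0.21 (9928) and 0.39 (9991). The GFP sites turned to 0.32 (5900), 0.07 (6038), 0.97 (6390), 0.46 (7199), 0.45 (7243), 0.07 (7285), 0.21 (7839) and 0.22 (9991). In polysome over cytoplasm the scale gave, for the stretch, MT-CO1, MT-CO2 and MT-CO3, -1.53, -0.39, -1.33 and 0.77 in KO and -2.25, -0.14, -1.05 and 0.38 in WT. Sites that turned were 7285 (0.26), 9928 (0.01) and 9991 (0.78) in KO, and 7166 (0.05), 7243 (0.12), 7285 (0.75), 7343 (0.15), 9928 (0.18) and 9991 (0.39) in WT. KO over WT was 0.58, 0.25, 0.23 and -0.01 in cytoplasm and 1.29, -0.01, -0.05 and 0.38 in polysomes, with 9991 at 0.38. With library totals, polysome over cytoplasm for the stretch, MT-CO1 and MT-CO3 was -3.27, -2.13 and -0.97 in KO and -3.65, -1.54 and -1.02 in WT, and KO over WT was 0.50, 0.18 and -0.08 in cytoplasm and -0.03 for MT-CO3 in polysomes.

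Fitting only the libraries compared lowered the STAU1 count to 10 lower, where 610 of 25871 sites were called lower, against 1008 of 33744 in the main fit. The fit of only those libraries and library totals each ended 5 calls of named sites. The double ratio had 1 member called higher, site 6038, with DESeq2, without the low-count filter and with the replicate block. It had none with RLE size factors or library totals, as in the main fit, and the cause was not tested. The replicate block gave 6038 a double ratio of 1.47 (adjusted p = 0.015) and added GFP calls at 7166, 7871 and 9928. Same-numbered IP and input libraries did not deviate together (r = -0.04 for STAU1 and 0.04 for GFP over 6249 sites), so the numbers do not pair them.

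Leaving out each library in turn gave, for STAU1, sums of 0.75 to 1.03 (stretch), -1.09 to -0.94 (MT-CO1), -1.65 to -1.45 (MT-CO2) and -1.82 to -1.74 (MT-CO3). For GFP it gave 10 to 25 lower, and sums of -1.67 to -1.08, -1.48 to -1.13, -1.92 to -1.06 and -1.64 to -1.47. The double ratio of the stretch sum ran from 2.00 to 2.55. Counts of members called in these fits, which keep 1 library in a group, are not given. The GFP IP libraries, with 1245270 and 1291888 reads in all, limit what could be seen at the weaker sites.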
